A study of Mus musculus with 6 samples.

Results

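The genes of the Ikaros family of zinc finger transcription factors, Ikzf1 to Ikzf5, were described in regulatory T (Treg) cells that lack both E2 enzymes of neddylation. Members were chosen by gene symbol, with earlier results of these data known. All 5 were measured, each by 1 probe set of the 22206 on the array, and none was lost to a filter. Their levels came from 6 mouse Clariom S arrays, a platform that gives 1 signal per probe set on a log2 scale. 3 arrays held control Treg cells of Foxp3Cre/wt mice, and 3 held Ube2m&Ube2f-deficient Treg cells of Foxp3Cre/wt mice that were fl/fl for both Ube2m and Ube2f. Both groups carried the YFP-Cre allele at Foxp3, so that the Cre acts in Treg cells, and the study states that the mice were females mosaic for this allele, whose other Treg cells stayed normal. CD4+YFP+ cells were sorted from peripheral lymph nodes and spleens, and 2 to 3 mice of 8 to 12 weeks were combined for each array.

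Ikaros family proteins bind DNA through zinc fingers near the amino terminus and pair with each other through a second set of fingers at the carboxyl end. They recruit corepressor complexes such as NuRD and can silence or sustain lymphocyte genes. Ikaros (Ikzf1) is made in all lymphocytes, and Aiolos (Ikzf3) is best known in B cells and differentiated T cells. Helios (Ikzf2) and Eos (Ikzf4) are characteristic of Treg cells, where Eos acts with Foxp3 in repression and Helios helps to keep the lineage stable. Pegasus (Ikzf5) is the most divergent member. In human cells, drugs of the thalidomide class direct the cullin ligase receptor cereblon to IKZF1 and IKZF3, and cullin ligases need neddylation for their activity.

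Ikaros proteins bind the letters GGGAA, so sequence upstream of the start sites is shown for the members for which it was at hand, Ikzf1 and Ikzf5. RefSeq windows (GRCm38.p6) matched 2 of the 5 members, Ikzf1 with 2 start sites and Ikzf5 with 1, and each is given as the 250 bases before the start site, 5′ to 3′ on the gene's strand, with GGGAA or its complement TTCCC in capitals.
Ikzf1, first start site, chr11:11685675-11685924, + strand: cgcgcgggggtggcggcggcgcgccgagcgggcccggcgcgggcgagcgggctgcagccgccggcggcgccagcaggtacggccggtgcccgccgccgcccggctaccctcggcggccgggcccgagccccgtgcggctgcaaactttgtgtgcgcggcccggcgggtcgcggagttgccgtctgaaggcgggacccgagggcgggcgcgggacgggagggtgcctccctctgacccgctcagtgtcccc
Ikzf1, second start site, chr11:11689927-11690176, + strand: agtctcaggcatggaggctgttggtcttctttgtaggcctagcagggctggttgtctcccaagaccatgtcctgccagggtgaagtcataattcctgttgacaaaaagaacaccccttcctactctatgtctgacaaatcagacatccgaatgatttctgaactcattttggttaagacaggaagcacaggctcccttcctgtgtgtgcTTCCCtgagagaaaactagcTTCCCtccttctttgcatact
Ikzf5, chr7:131410479-131410728, - strand: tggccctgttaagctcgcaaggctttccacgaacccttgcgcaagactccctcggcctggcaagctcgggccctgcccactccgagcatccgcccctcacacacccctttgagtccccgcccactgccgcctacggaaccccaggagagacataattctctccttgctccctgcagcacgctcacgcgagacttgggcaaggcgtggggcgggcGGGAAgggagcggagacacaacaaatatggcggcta
The first Ikzf1 window held 0 matches on either strand, was 82.0% G or C and had 44 CG pairs, against a median of 52.4% and 6 CG pairs over 32851 windows of the same length. The second Ikzf1 window was poorer in both, with 47.6% G or C and 1 CG pair, and held 2 matches, both on the opposite strand, with first bases at -41 and -21 from the start site. The Ikzf5 window held 1 match on its own strand, with its first base at -36, and was 64.0% G or C. At least 1 match occurred in 56.2% of all windows, so a match is a common feature and is given only as a description. The array has 1 probe set per member and does not say which start site was used.

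The labels were checked on genes outside the family. The targeted gene Ube2f fell from 11.88 ± 0.05 to 9.75 ± 0.06 (SD, n = 3 each; adjusted p = 0.000263, limma), and Ube2m was not analysed here. The position of these probes relative to the floxed exons is unknown here, which limits Ube2f as a check of the labels. The sample titles name muscle, whereas the mean log2 signal of 15 skeletal muscle genes was 3.99 to 4.21 over the 6 arrays and that of 12 T cell identity genes was 14.52 to 14.90. The mean of 8 Treg markers was 13.56 to 13.79 in control and 12.69 to 12.83 in deficient arrays. Past an adjusted p of 0.05 in limma, 4 of them were lower and 0 higher, against 2.27% and 0.581% of all probe sets. Il2ra (10.62 and 11.22, adjusted p = 0.135) and Gpr83 (13.50 and 14.19, adjusted p = 0.195) were higher in deficient arrays without overlap. Foxp3 was not among the genes measured under a symbol. The 95th percentile of 1091 olfactory receptor genes, 5.39, was taken as a reference for silent genes, and all 5 members lay above it on every array.

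In the deficient Treg cells the members of the family lay in both directions, but no call of a member was kept with any 1 array left out. Ikzf1 rose and Ikzf2 fell past an adjusted p of 0.05 in limma, 1 member in each direction, so that 2 of 5 were called against 2.85% of all probe sets (0.581% higher and 2.27% lower). Ikzf3 and Ikzf4 lay on the sides of Ikzf1 and Ikzf2 without passing, and Ikzf5 overlapped between the groups. The 3 control and 3 deficient values did not overlap for 4 of the 5 members, against 18.2% of all probe sets (8.22% higher and 9.97% lower in deficient arrays). The same 4 had an unadjusted p under 0.05 in limma, against 12.9% of all probe sets, and the same 4 met the threshold of the study's methods, an unadjusted p under 0.05 in the methods' t-test and a fold over 1.5, against 6.74%. Since the family and the lists below were chosen with earlier results of these data known, such shares are only descriptive. Differences are given as deficient minus control on the log2 scale, and their median was -0.40 over the members and 0.02 over all probe sets. In bulk RNA, a change in the share of cells that make a transcript cannot be told apart from a change in the amount per cell.

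**Figure D1:**
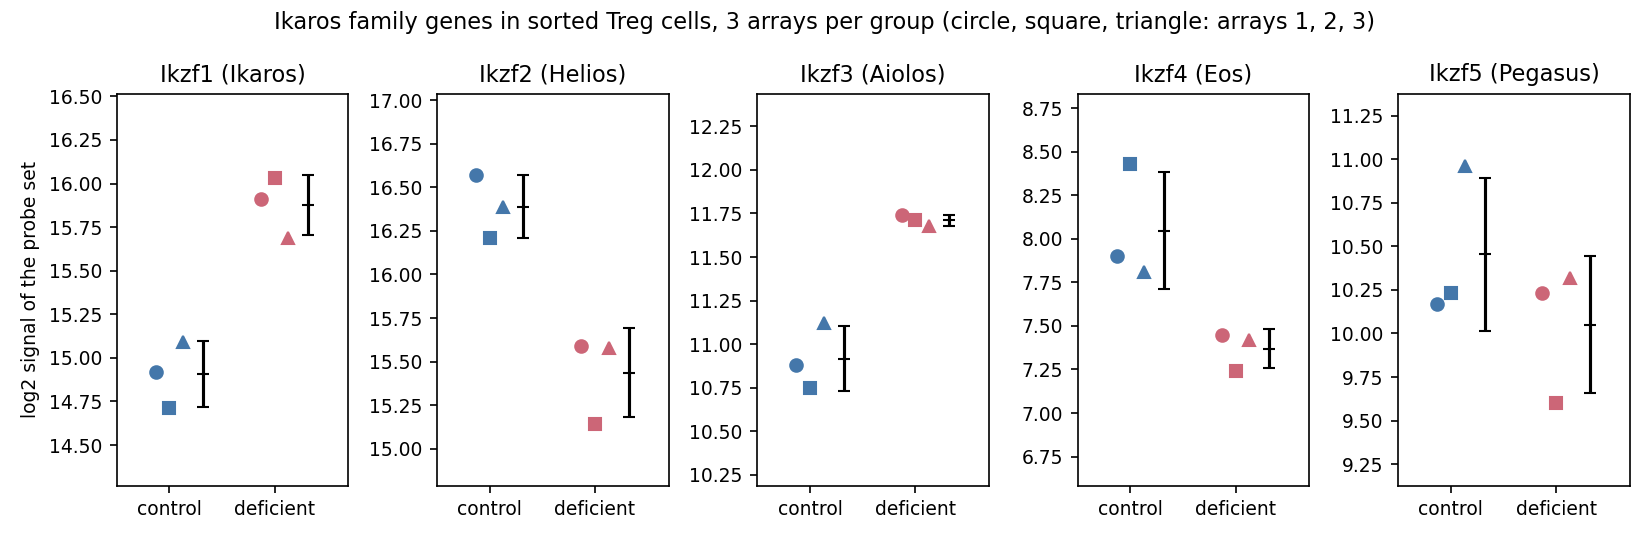
Log2 signal (y axis) of each Ikaros family gene on the 3 control and 3 deficient arrays, with the mean and SD beside each group; each panel spans the same number of log2 units around its own level. Ikzf1 (14.71 to 15.09 in control, 15.69 to 16.03 in deficient) and Ikzf3 lie higher in deficient arrays, Ikzf2 and Ikzf4 lower, and the groups of Ikzf5 overlap.

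Ikzf1 encodes Ikaros, the founding member. Its log2 signal was 14.92, 14.71 and 15.09 in control arrays 1 to 3 and 15.91, 16.03 and 15.69 in deficient arrays 1 to 3. Every deficient array was above every control array, and the gap between the groups, 0.60, was wider than the spread within either one (0.38 and 0.34). The means were 14.91 ± 0.19 and 15.88 ± 0.17 (SD, n = 3 each). The log2 difference was 0.97 (SE 0.19, 95% CI 0.54 to 1.40), or 1.96-fold (1.45 to 2.64), with an adjusted p of 0.0315 in limma. A two-sided exact permutation of the group labels returned p = 0.1, the smallest that 3 against 3 arrays allow. The call depended on having all arrays, since the adjusted p was 0.0535 to 0.129 when any 1 of the 6 was left out, and 0.0545 after median centring, while the difference stayed between 0.87 and 1.06.

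Ikzf3 encodes Aiolos, a close relative of Ikaros. Control arrays 1 to 3 had log2 signals of 10.88, 10.75 and 11.12, and deficient arrays 1 to 3 had 11.74, 11.71 and 11.68. All deficient values were above all control values, and they lay within 0.06 of each other, the smallest spread of any member in either group. The log2 difference was 0.79 (SE 0.18, 95% CI 0.39 to 1.20), or 1.73-fold (1.31 to 2.29), but the adjusted p of 0.0554 in limma missed the threshold. The call of Ikzf3 was made with quantile-normalized arrays (0.0387), with the dimmest 40% of probe sets removed (0.0458) and with an intensity trend in the variance (0.0408). It was not made after median centring (0.0884) or with any 1 array left out (adjusted p 0.0917 to 0.203, limma).

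Aiolos is also abundant in B cells and plasma cells, so markers of both were read beside it, in cells that had been enriched for CD4 on beads and then sorted as CD4+YFP+. Of 11 B cell markers, 3 were above the silent-gene reference, and their mean was 4.45 to 4.64 in control and 4.13 to 4.48 in deficient arrays. The defining B cell genes Pax5 (3.31 and 3.30) and Ms4a1 (3.36 and 3.08) had control and deficient means under the reference, Cd22 fell (4.80 and 3.34, both under the reference; adjusted p = 0.0277), and Cd79b, the brightest of the list, was at 6.63 and 6.30 (adjusted p = 0.725, limma). Of 6 plasma cell genes, 1 was above the reference in deficient arrays, Jchain, the joining chain of secreted antibodies, which read 7.69, 5.31 and 5.26 in control and 10.10, 11.94 and 8.01 in deficient arrays (log2 difference 3.93, adjusted p = 0.0773). The Jchain difference ran from 2.97 to 4.93 when 1 array was left out, and it passed without control array 1 (adjusted p = 0.0487), without deficient array 3 (0.0227), without control array 1 and deficient array 2 together (0.0106) and with array weights (0.0429), with a range of adjusted p from 0.0106 to 0.407 over all alternatives. The plasma cell list had 0 genes higher and 1 lower past the threshold, Prdm1 (-2.90, adjusted p = 0.000263), which Treg cells also express. Sdc1 (5.26 and 5.28) and Derl3 (3.66 and 3.53) were under the reference in both groups, and their groups overlapped. Mzb1 (2.64 and 3.33, adjusted p = 0.155, limma) and Tnfrsf17 (3.67 and 4.07, adjusted p = 0.335) were also under it in both groups. Both were higher in deficient arrays without overlap. Over the deficient arrays, Jchain ran from 8.01 to 11.94, Ikzf3 from 11.68 to 11.74 and Ikzf1 from 15.69 to 16.03. Jchain and Ikzf1 were both highest in deficient array 2 and lowest in deficient array 3. The control arrays had another order, with Jchain highest in control array 1 and lowest in control array 3, where Ikzf1 was highest. The part of antibody-making cells in the Ikzf1 and Ikzf3 values was not tested.

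Ikzf2 encodes Helios, the member most used as a marker of Treg cells. Its log2 signal was 16.57, 16.21 and 16.39 in control arrays 1 to 3 and 15.59, 15.14 and 15.58 in deficient arrays 1 to 3. Each deficient array was below each control array, with a gap of 0.62 between the groups. The means were 16.39 ± 0.18 and 15.44 ± 0.26 (SD, n = 3 each). The log2 difference was -0.95 (SE 0.20, 95% CI -1.41 to -0.49), a 1.94-fold fall (1.41 to 2.66), with an adjusted p of 0.0446 in limma. Helios transcript was still far above the silent-gene reference of 5.39 in every deficient array. The call was lost without any 1 of the 6 arrays (adjusted p 0.0832 to 0.162, differences from -1.04 to -0.81).

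Ikzf4 encodes Eos, the corepressor partner of Foxp3. Control arrays 1 to 3 had log2 signals of 7.90, 8.43 and 7.81, and deficient arrays 1 to 3 had 7.45, 7.24 and 7.42. The deficient values were all below the control values, and control array 2 stood highest. The log2 difference was -0.68 (SE 0.21, 95% CI -1.16 to -0.20), or 1.60-fold (1.15 to 2.23), with an adjusted p of 0.178 in limma. Without control array 2 the difference was -0.49 (adjusted p = 0.425), and it kept its sign under every alternative tried.

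Ikzf5 encodes Pegasus. Its log2 signal was 10.17, 10.23 and 10.96 in control arrays 1 to 3 and 10.23, 9.60 and 10.32 in deficient arrays 1 to 3, so the groups overlapped. The log2 difference of -0.40 had a 95% confidence interval from -1.04 to 0.23 and an adjusted p of 0.653 in limma, and rested on 2 arrays, being -0.15 without control array 3 and -0.18 without deficient array 2. Deficient array 2 held the most extreme deficient value of Ikzf1, Ikzf2, Ikzf4 and Ikzf5. Without it the differences of the first 3 were 0.89, -0.81 and -0.61. The mean of 5 NK cell markers was also highest on that array (6.69, against 4.26 and 4.74 on the other deficient arrays and 4.27 to 5.56 in control), and its part in these values was not tested.

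**Figure D2:**
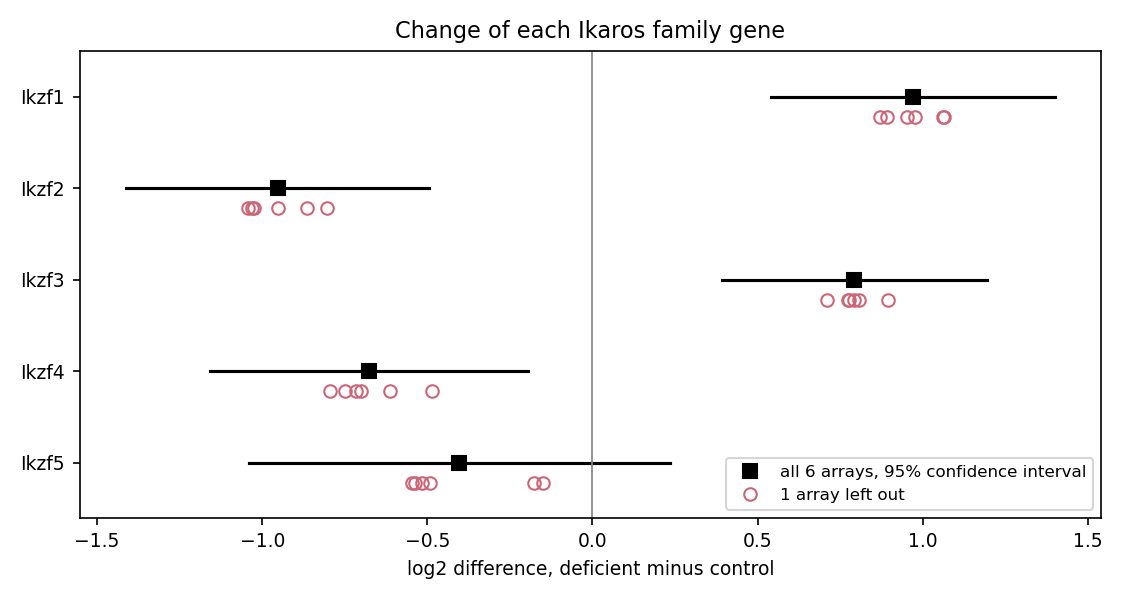
Log2 difference, deficient minus control (x axis), of each Ikaros family gene: black squares with 95% confidence intervals from limma on all 6 arrays, open circles with 1 array left out in turn. The intervals of Ikzf1 and Ikzf3 lie above 0, those of Ikzf2 and Ikzf4 below 0, and that of Ikzf5 from -1.04 to 0.23.

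Whether members changed unequally was asked within each array, by subtracting the log2 signal of one member from that of another and comparing this value between the groups. Only its shift is meaningful, since each probe set has its own brightness. Over the 10 pairs, the groups did not overlap for 6, and these were all pairs of Ikzf1 or Ikzf3 with Ikzf2, Ikzf4 or Ikzf5. For Ikzf1 or Ikzf3 with Ikzf2 or Ikzf4 this was fixed in advance, since each gene alone separated the groups, in opposite directions. The share of such pairs among other probe sets was not computed, so the count is only descriptive. The widest shift was that of Ikzf1 minus Ikzf2, which read -1.65, -1.50 and -1.30 in control and 0.32, 0.89 and 0.11 in deficient arrays, a shift of 1.92 (95% interval 1.22 to 2.63). Ikzf2 minus Ikzf3 shifted by -1.75 (-2.28 to -1.21), Ikzf1 minus Ikzf4 by 1.65 (0.71 to 2.58) and Ikzf3 minus Ikzf4 by 1.47 (0.64 to 2.30). Each of the 6 had p = 0.1 in the exact two-sided permutation test, the smallest possible, and 0.167 after adjustment over the 10 pairs, so no pair could pass the threshold in this design.

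The other 4 pairs overlapped between the groups. Ikzf1 minus Ikzf3 read 4.04, 3.96 and 3.97 in control arrays and 4.17, 4.32 and 4.01 in deficient arrays, a shift of 0.18 (95% interval -0.08 to 0.43). Its control SD, 0.04, was smaller than the control SD of either gene alone, 0.19 for both. In deficient arrays the SD of the pair was 0.16, against 0.17 for Ikzf1 and 0.03 for Ikzf3. The pair thus varied less than both genes only in the control pools. Ikzf2 minus Ikzf4 shifted by -0.28 (-1.1 to 0.54), Ikzf2 minus Ikzf5 by -0.55 (-1.36 to 0.26) and Ikzf4 minus Ikzf5 by -0.27 (-1.46 to 0.92). These intervals leave room for unequal changes within those pairs. The sign of Ikzf4 minus Ikzf5 turned without control array 2 (0.03).

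**Figure D3:**
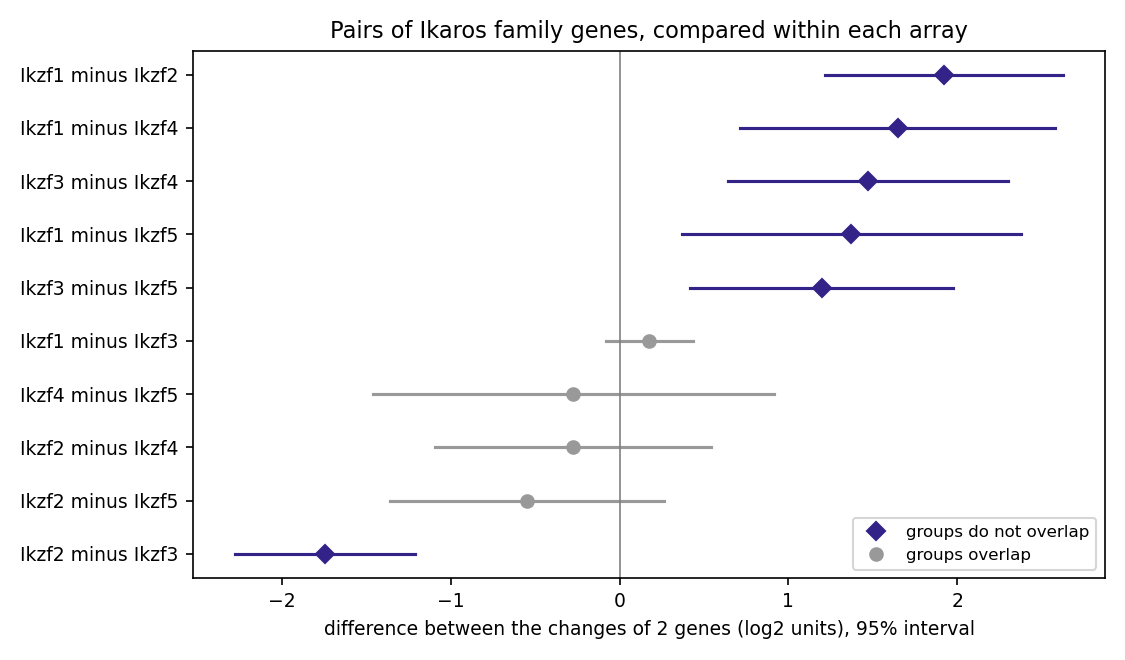
Shift between deficient and control arrays in the within-array log2 difference of each pair of members (x axis, log2 units, with 95% intervals from the 6 arrays). The 6 pairs whose groups do not overlap (diamonds) join Ikzf1 or Ikzf3 with Ikzf2, Ikzf4 or Ikzf5, and the shift of Ikzf1 minus Ikzf3 is 0.18. For Ikzf1 or Ikzf3 with Ikzf2 or Ikzf4 the lack of overlap follows from the values of each gene alone.

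Among named genes above the silent-gene reference, a few followed a member closely over the 6 arrays. Sgk3, a kinase related to AKT, had the highest Pearson correlation with Ikzf1 (r = 0.998) and rose from 8.38 ± 0.22 to 9.50 ± 0.24 (SD, n = 3 each; adjusted p = 0.0241, limma). Txk, a Tec family kinase of T cells, followed Ikzf3 (r = 0.991) and rose by 1.73 on the log2 scale (adjusted p = 0.0103), and so did Crybg1 (r = 0.995, log2 difference 1.17, adjusted p = 0.0257). Tmtc4 followed Ikzf2 (r = 0.992) and fell by 1.26 (adjusted p = 0.0457), and Zap70, the kinase that couples the T cell receptor to its adaptors, followed Ikzf4 (r = 0.994, log2 difference -0.52, adjusted p = 0.274). The call of Txk was lost without deficient array 1 (adjusted p = 0.0576), that of Sgk3 without any 1 array but deficient array 3, that of Crybg1 without any 1 array but control array 3, and that of Tmtc4 without any 1 of the 6. The points share the 6 arrays and the group shift, and r above 0.95 was reached by 0.224% (Ikzf5) to 1.19% (Ikzf2) of the 8927 candidates, so these values are only descriptive. Pkmyt1 (with Ikzf1), Mavs (Ikzf2), Coq9 (Ikzf4), Ttll1 and Xab2 (Ikzf5) completed the closest pairs, with r from 0.983 to 0.994, and did not pass.

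Of 10 genes next to the members on the chromosome, 0 passed in limma and 0 in the methods' t-test, and 1 had an unadjusted p under 0.05 in limma, which is near the shares of all probe sets (2.85% called and 12.9% at an unadjusted p under 0.05). That gene was Acadsb, beside Ikzf5, at 0.57 on the log2 scale (adjusted p = 0.351). Erbb4, beside Ikzf2, stood at 0.47, and its means of 3.76 and 4.22 did not reach the silent-gene reference. Rps26 and Suox, on either side of Ikzf4, stood at 0.24 and -0.06, Mien1 and Zpbp2 beside Ikzf3 at 0.15 and 0.42, Fignl1 and Spata48 beside Ikzf1 at 0.41 and 0.18, Spag16 beside Ikzf2 at -0.24 and 2310057M21Rik beside Ikzf5 at 0.25. The span of Pstk overlaps that of Ikzf5 in the annotation.

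Partners and modifiers of Ikaros proteins were read next. With 2.85% of all probe sets called and 12.9% at an unadjusted p under 0.05, lists of this size are too short for a count of 0 calls to set them apart. Of 19 measured corepressor and chromatin genes, among them the NuRD subunits Mta2 and Hdac1 and the Eos partner Ctbp1, 0 passed in limma, 0 had an unadjusted p under 0.05 and 0 passed in the methods' t-test, with a list median of 0.07 against 0.02 for all probe sets. The lowest p values were those of Gatad2a, a NuRD subunit (0.42, adjusted p = 0.431), and Smarcc1, a subunit of the SWI/SNF remodeller (0.46, adjusted p = 0.470). Ctbp2 was under the silent-gene reference (3.30 and 3.24), and Chd4 and Rbbp8 were not analysed here. Casein kinase 2 and protein phosphatase 1 act on Ikaros proteins. The cereblon ligase was listed with them for its known action on IKZF1 and IKZF3 in human cells with drugs of the thalidomide class. Of 10 measured genes for these enzymes, 0 passed in limma, 1 had an unadjusted p under 0.05, and 0 passed in the methods' t-test, with a list median of -0.06. That gene was Crbn, which encodes cereblon. Its log2 signal was 14.08, 13.86 and 13.68 in control and 13.52, 13.21 and 13.36 in deficient arrays, without overlap, and the difference of -0.51 had an adjusted p of 0.274. Cul4a, a cullin scaffold of that ligase, stood at 0.41 (adjusted p = 0.395).

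Of 11 measured genes that the family is known to repress, 1 rose and 1 fell in limma and 9 did not pass, against 0.581% of all probe sets higher and 2.27% lower, and the list median was -0.03. Dtx1, the Notch pathway ligase Deltex, rose from 13.27 ± 0.30 to 14.64 ± 0.28 (SD, n = 3 each; 1.37 on the log2 scale, adjusted p = 0.0149). Ifng, the cytokine interferon gamma, fell from 6.89 ± 0.64 to 4.42 ± 0.67, a log2 difference of -2.47 (adjusted p = 0.0127), to a mean under the silent-gene reference, so its size is not exact. Il2, the classical target of repression by Ikaros, Aiolos and Eos, was under the reference in both groups (2.89 and 2.94), so no change could be read. In all, 3 of the 11 genes were above the reference in control arrays. The call of Ifng was lost without control array 3 (adjusted p = 0.0593), and that of Dtx1 without control array 2 or 3 or deficient array 1 (up to 0.0733).

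Among 21 measured transcription factors that act with Foxp3 or shape Treg identity, 4 rose and 1 fell, against 0.581% of all probe sets higher and 2.27% lower, with a list median of 0.11. The largest difference was that of Satb1, a chromatin organiser that Eos and Foxp3 are known to hold down, which read 13.48, 13.66 and 13.99 in control and 15.89, 16.05 and 16.05 in deficient arrays (2.29, adjusted p = 0.000427). Lef1 (from 13.62 to 14.62, adjusted p = 0.0329) and Rel (0.89, adjusted p = 0.0430) rose, as did Foxp1 (0.89, adjusted p = 0.0446), which was chosen after its values were seen. Irf4, a factor of effector Treg cells, fell by 1.47 on the log2 scale (adjusted p = 0.0291). Of the 5 calls, only that of Satb1 was kept whichever array was left out. Irf4 was lost without control array 1, 2 or 3 or deficient array 1 or 3 (up to 0.128), and the other 3 without any 1 array.

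Other zinc finger factors of the same C2H2 class showed 4 falls and 0 rises among 24 measured genes, against 2.27% of all probe sets lower and 0.581% higher, with a list median of 0.03. Prdm1, known as Blimp-1, fell from 7.89 ± 0.19 to 4.99 ± 0.35 (SD, n = 3 each; -2.90, adjusted p = 0.000263), Bcl6, its antagonist in follicular cells, stood at -1.61 (adjusted p = 0.0186) and Egr2, a factor induced by the T cell receptor, at -1.43 (adjusted p = 0.0158). The fourth was Plagl1 (-1.45, adjusted p = 0.0133). The deficient mean of Prdm1 and both means of Plagl1 (5.25 and 3.80) did not reach the silent-gene reference, so the sizes of these falls are not exact. Prdm1 alone kept its call whichever array was left out, and 1 fall remained in the count without control array 2 or without deficient array 1. These lists share the 6 arrays with the family, and the difference between any list and the family was not tested.

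**Figure D4:**
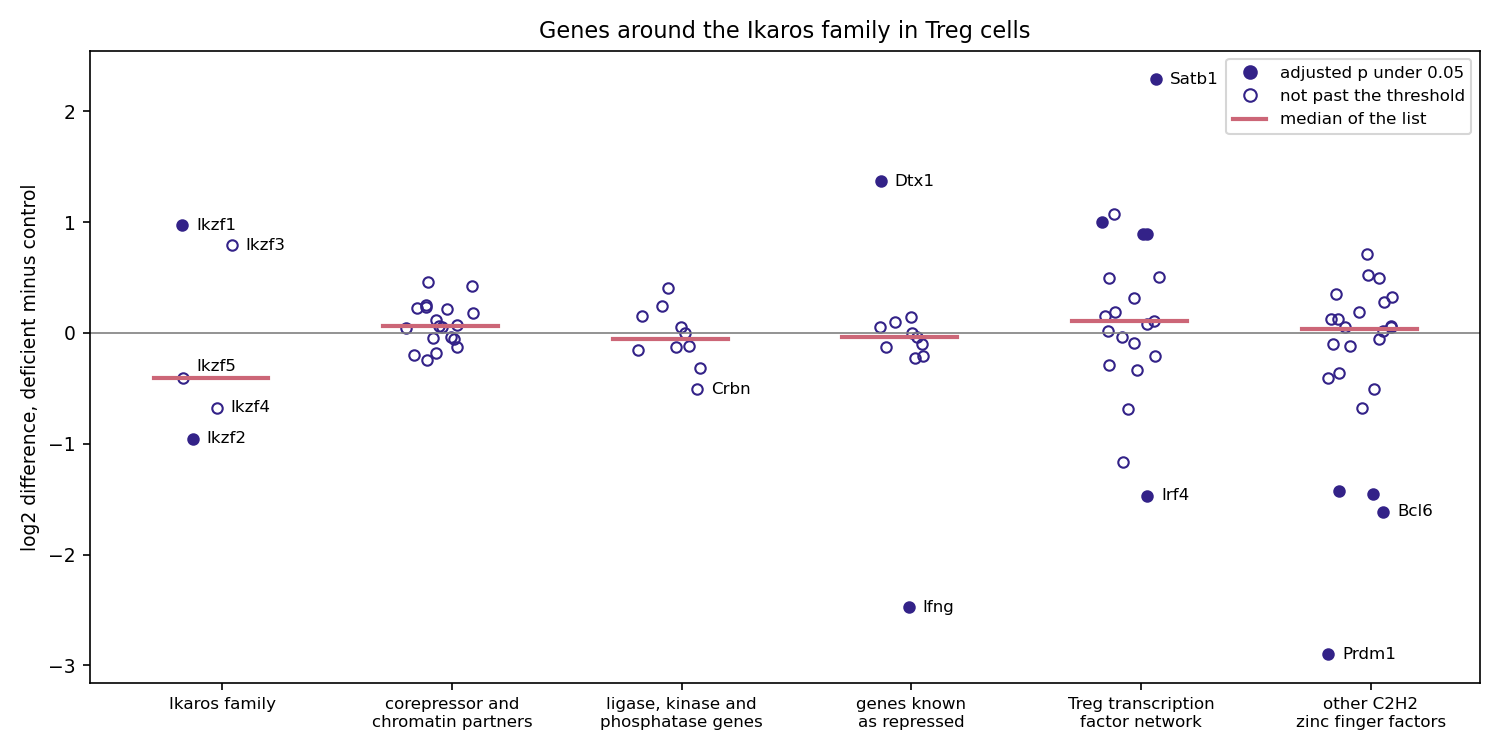
Log2 difference, deficient minus control (y axis), of the Ikaros family and of 5 lists of related genes (x axis); each circle is a gene, filled where the adjusted p from limma was under 0.05, and the bar is the median of the list. Corepressor and ligase genes have 0 calls, while Satb1 (2.29) and Prdm1 (-2.90) lie farthest out in their lists.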

How the data were processed

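Sorted Treg cell RNA was reverse transcribed, amplified with a pico kit and hybridised to Clariom S arrays. The deposited table holds 1 log2 signal for each probe set and array, which the authors made, per the submitters' processing notes with Affymetrix Expression Console 1.4. How probes were summarised, how background was corrected, any filter and the log base: not given in the sources used here. Values were read as log2 because they ran from 2.06 to 19.90 with array medians from 4.89 to 5.11. No scan date or other batch was at hand to examine. Arrays of a group correlated at 0.982 to 0.993 across probe sets, which are not replicates, and any 2 arrays shared at most 1.09% identical values.

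Samples were grouped by the genotype label. The members and lists were chosen with earlier results of these data known. A model with the group alone was fitted by limma 3.58.1 (lmFit, then eBayes; R 4.3.3) to the 22206 probe sets together, and p-values were adjusted by Benjamini-Hochberg and called under 0.05, after the fit had been tested on simulated data. Of the probe sets, 19572 had 1 symbol in the platform annotation and 2634 were unnamed, and the brightest stood for a symbol. Intervals of member pairs came from the 6 within-array differences. With 3 arrays a group precision is low. The p-values from limma rest on the spread between pools of mice, moderated for each probe set by the spread of all probe sets.

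Named were the members, Ube2f, Crbn, Il2, in each list up to 4 genes with the largest difference past the threshold or else the 2 with the lowest p, the 2 closest genes and the 2 neighbours of each member, and markers. Foxp1, Mta2, Hdac1, Ctbp1, Ctbp2, Pax5, Ms4a1, Cd22, Sdc1, Derl3, Mzb1, Tnfrsf17, Il2ra and Gpr83 were added after their values were seen. Alternatives were median centring or quantile normalization, removal of the dimmest 40% of probe sets, array weights, a robust variance with an intensity trend, the methods' t-test, a block for the replicate number, each array left out in turn, control array 1 and deficient array 2 left out together, and averaging probe sets that share a symbol. RefSeq tables of GRCm38.p6 gave the promoter windows and gene neighbours.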

Additional observations from a re-analysis of the deposited data

How the results depend on the processing

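No alternative turned the sign of a member. Of 16 alternatives, Ikzf1 passed in 6, Ikzf2 in 7, Ikzf3 in 4, Ikzf4 in 1 and Ikzf5 in 0. These counts include the averaging of probe sets, which leaves the values of members with 1 probe set unchanged. They also include the methods' threshold, which has no adjustment. The Ikzf1 call was lost after median centring (0.94, adjusted p = 0.0545), with the methods' adjusted t-test (0.97, adjusted p = 0.152), without control array 1 and deficient array 2 together (0.90, adjusted p = 0.165) and with each array left out (0.87 to 1.06), and the Ikzf2 call with the t-test (-0.95, adjusted p = 0.194), without those 2 arrays (-0.72, adjusted p = 0.249) and with each array left out (-1.04 to -0.81). Ikzf3 passed with quantile-normalized arrays (0.88), without the dimmest probe sets and with an intensity trend (0.79 in both), and Ikzf3 (0.79) and Ikzf4 (-0.68) passed at the methods' threshold, an unadjusted t-test p under 0.05 and a fold over 1.5. So 2 members were higher in these 4 settings, 0 after median centring and with the adjusted t-test, and 0 without an array or both arrays (range over single arrays 0 to 0). Members lower numbered 2 at the methods' threshold, 0 with the adjusted t-test, 0 without both arrays and 0 to 0 without single arrays.

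With the replicate number as a block, Ikzf1 (0.97, adjusted p = 0.0970) and Ikzf2 (-0.95, adjusted p = 0.0665) no longer passed, leaving 0 members higher and 0 lower, and 70 probe sets higher on the array against 129. Same-numbered arrays had deviations that correlated at -0.06, -0.24 and 0.29, so the numbers do not pair the samples, and not every array correlated best with its own number. All probe sets called ranged, without single arrays, from 46 to 81 higher and from 269 to 431 lower, and the adjusted t-test called 1 and 5, the methods' threshold 468 and 1028.

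Signs turned only in differences that did not pass: Il2 with array weights (-0.0442), without control array 2 (-0.05), without deficient array 2 (-0.215) and without both arrays (-0.20), Bst2 without control array 1 (-0.47) or deficient array 1 (-0.51), Spata48 without deficient array 2 (-0.08) or both arrays (-0.035), Spag16 without deficient array 2 (0.10), Mien1 without control array 1 (-0.0717) or both arrays (-0.16), Suox after quantile normalization (0.0522) or without deficient array 3 (0.0117), and Ikzf4 minus Ikzf5 without control array 2 (0.03). Over single arrays left out, these ran from -0.51 to 0.77 for Bst2, -0.215 to 0.24 for Il2, -0.08 to 0.41 for Spata48, -0.52 to 0.10 for Spag16, -0.0717 to 0.28 for Mien1, -0.153 to 0.0117 for Suox and -0.645 to 0.03 for the pair. The cause was not tested. Leaving out arrays lowers the degrees of freedom, and 3 arrays a group limit every call.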
